A study of Mus musculus with 28 samples.

Results

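Nascent RNA of 10 genes that license DNA replication was followed in WT and EloA null mouse embryonic stem cells (mESCs): the helicase subunit genes Mcm2, Mcm3, Mcm4, Mcm5, Mcm6 and Mcm7, the helicase partner Mcm10, the loading factors Cdc6 and Cdt1, and the origin recognition gene Orc1. They were chosen by name, as members of one known pathway, with earlier results of these data known. All 10 were found among the 24984 genes listed in the series. RNA was labelled with bromouridine (BrU, 2 mM), immunopurified and sequenced (Bru-seq) in 3 conditions: steady state (BrU for 10 min), and 5 min or 10 min of recovery after flavopiridol (FP, 1 µM for 60 min) was removed, with BrU present during the recovery. FP inhibits CDK9, so that RNA polymerase II (Pol II) is held near promoters and starts down the gene when the drug is washed out. Each genotype and condition had 2 libraries, 12 in all.

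The WT and EloA null cells were CCE28 mESCs grown in 2i with LIF and depleted of feeder cells before labelling, and both were supplied by another laboratory. The number of clones behind the EloA null cells is not given in the sources used here, and the protocol for BrU names CJ7 cells instead. EloA is the large subunit of Elongin, a factor that raises the rate of Pol II elongation in vitro. The study describes the Bru-seq as independent experiments in duplicate, and p-values rest on the spread between these 2 libraries per group. The first steady-state library titled EloA null is given as wild type in its genotype field; its title set its group. Nascent RNA of the targeted gene, Eloa, was higher in the libraries labelled EloA null in every condition. It gave 1.96 and 1.89 RPKM against 1.18 and 1.16 in WT in steady state. After 5 min the values were 5.14 and 6.25 against 2.96 and 2.82 RPKM in WT. After 10 min they were 8.74 and 8.93 against 4.65 and 6.51 RPKM in WT. Directions are therefore given by label. The study also examined EloA protein by immunoblot, and EloA binding by ChIP-seq and CUT&RUN-seq, in both cell types. At a ribosomal RNA gene it reports a CUT&RUN-seq signal of EloA specific to WT, and near the IgG control in EloA null cells. Those samples are not the Bru-seq libraries and are not analysed here, and nascent RNA over the gene does not measure the protein. All 8 markers of embryonic stem cells that were examined exceeded 0.5 RPKM in every library. The 4 endoderm markers did so in none, and of 10 markers of feeder fibroblasts 8 stayed at or below that level in all 4 steady-state libraries. Col1a1 of that list exceeded it in every library after 10 min, with up to 1.44 RPKM. Of 4 neural markers Tubb3 exceeded it in every steady-state library, with up to 1.08 RPKM, but in none of the recovery libraries.

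Before a cell copies its DNA, each replication origin has to be licensed. The origin recognition complex, of which ORC1 is the largest subunit, binds the origin with CDC6, and CDT1 brings in the ring-shaped helicase built of MCM2 to MCM7, which is loaded in an inactive form. In S phase the helicase is activated with the help of MCM10 and other firing factors, and relicensing is prevented by destruction of CDT1 and by its inhibitor geminin. mESCs have a short G1 phase and spend much of the cycle in S phase. The genes of the pathway are textbook targets of E2F transcription factors, which are held in check by the retinoblastoma family of pocket proteins.

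The start regions of these genes were examined for E2F-type letters, since E2F is the regulator the pathway is known for. RefSeq promoter windows of GRCm38, running from 250 bases before to 50 bases after the annotated start, were matched for 9 of the 10 genes, all but Mcm4. The 4 motifs searched on both strands were TTTCCCGC, TTTCGCGC, TTTGCCGC and TTTGGCGC. A window with at least 1 exact match was found for 7 of the 9 genes (Mcm3, Mcm5, Mcm6, Mcm7, Cdc6, Cdt1 and Orc1) and not for Mcm2 or Mcm10. Of all 32851 promoter windows 2.26% held a match, and counted by gene 2.605% of 27025 symbols had one. All 4 motifs contain the letters CG. The windows of the 9 genes held from 8 (Mcm3) to 32 (Cdt1) CG pairs, against a median of 7 in all windows. The part of CG content in the matches was not tested. Of the 2 annotated starts of Mcm7, the upstream window held 2 matches and the downstream window 0. In Mcm6 the match at −110 relative to the annotated start overlaps another on the opposite strand, and in Mcm5 a pair overlaps in the same way. A match describes the letters only and is not evidence of binding.

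The 4 windows below are shown because of traits of their genes. Mcm7 had the highest nascent RNA level, Mcm6 had the most matches, and Cdt1 and Orc1 were the extremes of the genotype comparison. All windows are written 5′ to 3′ on the strand of the gene, with the matched letters in capitals. The windows are chr5:138171834-138172133 (minus strand) for Mcm7, chr1:128359656-128359955 (minus strand) for Mcm6, chr8:122567765-122568064 (plus strand) for Cdt1 and chr4:108579204-108579503 (plus strand) for Orc1.
Mcm7: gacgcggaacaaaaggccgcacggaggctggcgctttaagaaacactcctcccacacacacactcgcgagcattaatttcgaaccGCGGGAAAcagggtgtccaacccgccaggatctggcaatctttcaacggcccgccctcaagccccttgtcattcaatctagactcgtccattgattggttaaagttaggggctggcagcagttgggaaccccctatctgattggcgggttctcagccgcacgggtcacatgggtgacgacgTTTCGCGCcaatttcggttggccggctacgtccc
Mcm6: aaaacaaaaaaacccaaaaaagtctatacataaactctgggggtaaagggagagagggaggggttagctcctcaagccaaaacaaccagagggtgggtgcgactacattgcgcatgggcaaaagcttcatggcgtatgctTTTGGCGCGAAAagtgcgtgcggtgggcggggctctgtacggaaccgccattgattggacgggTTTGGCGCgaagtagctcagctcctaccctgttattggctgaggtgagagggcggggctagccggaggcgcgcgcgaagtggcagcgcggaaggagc
Cdt1: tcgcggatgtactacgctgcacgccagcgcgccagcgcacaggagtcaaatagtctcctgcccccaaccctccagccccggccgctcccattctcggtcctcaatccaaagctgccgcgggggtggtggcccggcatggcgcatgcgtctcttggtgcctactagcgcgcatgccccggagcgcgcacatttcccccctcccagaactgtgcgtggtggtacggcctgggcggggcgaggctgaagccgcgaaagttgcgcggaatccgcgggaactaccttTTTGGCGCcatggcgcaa
Orc1: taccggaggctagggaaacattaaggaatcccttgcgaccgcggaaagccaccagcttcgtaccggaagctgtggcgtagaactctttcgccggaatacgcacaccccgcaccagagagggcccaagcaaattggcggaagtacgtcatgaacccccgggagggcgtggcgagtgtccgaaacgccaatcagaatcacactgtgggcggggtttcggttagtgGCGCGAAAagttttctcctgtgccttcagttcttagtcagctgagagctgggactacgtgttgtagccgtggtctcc

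Matches were found on both sides of the start. The match in Cdt1 begins 33 bases after the annotated start, the matches in Mcm3 begin 20 and 39 bases after it, and the match in Orc1 begins 27 bases before it. Windows of other replication genes also held such letters: 3 of 8 genes of a list of other licensing genes, 2 of 8 of helicase activation and firing, 7 of 21 of the replication fork, 2 of 7 of CDT1 destruction and 5 of 10 E2F and pocket protein genes with a window.

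Values are RPKM, reads per kilobase scaled to the size of the library, as deposited. For all 10 genes the RPKM corresponded to whole reads when the counted length was the introns of the curated RefSeq transcripts with the exon base on each side, so a level is the density of intron reads, within a tolerance of 0.00187 reads. Reads per library and gene ran from 550 (Cdt1) to 7753 (Orc1) in steady state, from 135 to 3728 after 5 min and from 401 to 11177 after 10 min, with the same genes at the extremes. Counting error was thus smallest for Orc1. It was largest for Cdt1, whose introns hold only 2943 bases, except in the EloA null libraries after 5 min. There Cdc6 had the fewest reads, at 170 and 220, against 183 and 328 for Cdt1.

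In steady state the licensing genes were among the genes with high nascent levels in WT mESCs. All 10 lay above 80.2% or more of the 10794 genes expressed (mean RPKM above 0.5), whose median was 1.91 RPKM. Mcm7, a helicase subunit gene at chr5:138164583-138171883 with 14 counted introns, had the highest level, at 16.8 and 17.0 RPKM in the WT libraries (mean 16.9 ± 0.0957, SD, n = 2). Mcm3 (chr1:20802968-20820312) gave 15.6 and 14.1 RPKM, and Mcm5 (chr8:75109509-75128439) gave 15.2 and 13.8 RPKM. These 3 subunit genes formed an upper group, and the ranges of Mcm3 and Mcm5 overlapped.

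The next levels in WT were those of Orc1 (chr4:108579454-108614833; 9.15 and 8.57 RPKM), Mcm6 (chr1:128331575-128359705; 8.76 and 7.57 RPKM), Cdt1 (chr8:122568015-122573130; 7.82 and 7.87 RPKM) and Mcm2 (chr6:88883474-88898780; 7.88 and 7.10 RPKM). The ranges of neighbours in this order overlapped, while Orc1 lay above Cdt1 and Mcm2 without overlap. Mcm10 (chr2:4990724-5012791) followed at 6.91 and 5.98 RPKM, Mcm4 (chr16:15623897-15637400) at 5.17 and 4.80 RPKM, and Cdc6 (chr11:98907801-98923942) was lowest at 4.21 and 3.92 RPKM. Mcm10, Mcm4 and Cdc6 did not overlap with their neighbours in the order.

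Genes for subunits that meet in the same ring therefore had unequal densities of nascent intron reads. Between Mcm7 and Mcm4, the highest and lowest of Mcm2 to Mcm7, mean WT levels differed 3.39-fold in steady state, and within single libraries of either genotype the highest exceeded the lowest by 3.26-fold to 4.06-fold. Over all 10 genes, Mcm7 exceeded Cdc6 4.16-fold in WT. Mcm7 was first and Cdc6 last in each of the 12 libraries. A nascent level is not an mRNA or protein level, and RPKM of intron reads can also differ between genes through base composition and how easily reads align.

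**Figure D1:**
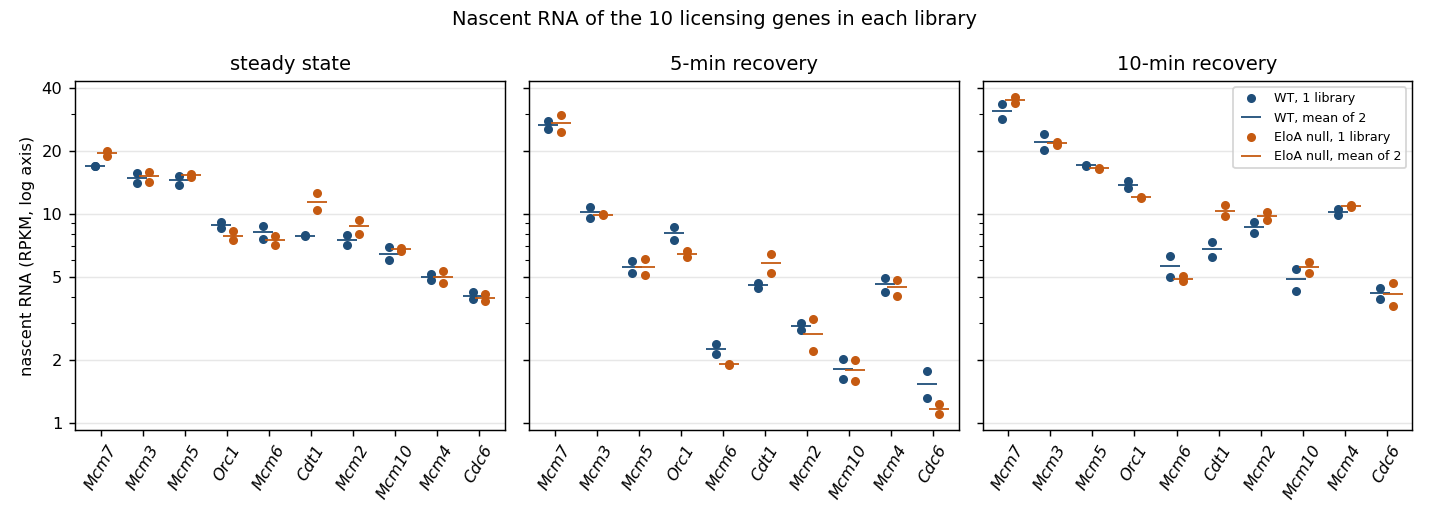
RPKM (log axis) of each licensing gene in each library, in 3 panels for steady state, 5-min and 10-min recovery; dots are single libraries, horizontal bars the mean of 2, blue WT and orange EloA null. Mcm7 lies at the top of each panel and Cdc6 at the bottom, and the spread among the genes is widest after 5 min.

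In the libraries labelled EloA null the order in steady state was much the same, with Cdt1 moved up. Mcm7 gave 20.0 and 19.0 RPKM, and Cdc6 gave 3.81 and 4.14 RPKM. Cdt1 rose from the sixth to the fourth place, and here its range did not overlap that of Mcm2, the next gene below.

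To ask whether loss of EloA changed transcription of the pathway, the genotypes were compared within each condition with limma on log2(RPKM + 0.1), a scale on which changes of low genes are understated, with Benjamini-Hochberg adjustment over all tested genes. None of the 10 genes passed an adjusted p of 0.05 in steady state or after 5 min or 10 min, and 0.0% of all genes tested did so (0 of 11345, 8984 and 10239). At an unadjusted p of 0.05, 1 gene (Cdt1) passed in steady state, where 18.4% of all genes did, 0 after 5 min, where 9.42% did, and 1 (again Cdt1) after 10 min, where 20.5% did. The median log2 fold change of the 10 genes was 0.05 in steady state, −0.04 after 5 min and 0.04 after 10 min, beside 0.03, −0.06 and 0.06 for all genes tested. From the deposited values, the licensing genes as a group lay close to the middle of all genes in each condition. With the GC trend described below removed, their median after 10 min was −0.092, beside −0.009 for all genes.

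The ratio of mean RPKM passed 1.5 in 0 of the 10 genes in steady state, where 7.21% of all genes exceeded that ratio upward and 2.1% downward in EloA null. It did so in 0 after 5 min (5.4% higher and 6.72% lower among all genes) and in 1, Cdt1, after 10 min (9.41% higher and 3.01% lower). In steady state, 3 genes were higher without overlap between the libraries of the genotypes (Mcm2, Mcm7 and Cdt1; 32.0% of all genes) and 1 was lower (Orc1; 21.4%). After 5 min, 1 was higher (Cdt1; 15.4%) and 3 were lower (Mcm6, Cdc6 and Orc1; 25.0%). After 10 min, 4 were higher (Mcm2, Mcm4, Mcm7 and Cdt1; 33.5%) and 2 lower (Mcm5 and Orc1; 21.8%). Most of these counts are close to what the same share of all genes would give in 10 genes.

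Cdt1, which encodes the protein that brings the helicase to the origin, had the largest difference of the 10 genes in steady state and after 10 min. In steady state it gave 7.82 and 7.87 RPKM in WT and 10.4 and 12.5 RPKM in the libraries labelled EloA null. After 5 min of recovery it gave 4.65 and 4.43 RPKM against 5.22 and 6.45 RPKM, and after 10 min 7.33 and 6.18 RPKM against 10.98 and 9.72 RPKM. The libraries labelled EloA null were higher without overlap in all 3 conditions.

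The log2 fold change of Cdt1 was 0.53 (SE 0.12, limma adjusted p = 0.162) in steady state. It was 0.35 (SE 0.19, limma adjusted p = 0.638) after 5 min and 0.61 (SE 0.13, limma adjusted p = 0.141) after 10 min. Across the alternatives tried, its adjusted p ran from 0.113 to 0.488 in steady state and from 0.0628 to 0.616 after 10 min, so the difference of Cdt1 passed the adjusted threshold under none of them. Its ratio of means after 10 min was 1.53, and it was 1.41 without the second WT library, 1.44 without the first EloA null library, and 1.17 with the GC trend described next removed. Cdt1 also has the highest GC content of the 10 genes, 55.8% over its span, above 93.5% of tested genes.

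Differences between the genotypes moved with GC content over the whole transcriptome in steady state and after 10 min. In steady state the median log2 fold change rose from −0.14 over the 1360 tested genes with at most 40% GC to 0.31 over the 1261 genes above 54%, and after 10 min from −0.10 to 0.39. After 5 min the corresponding medians were −0.08 and −0.04. In steady state and after 10 min the licensing genes followed the same order, with Pearson's r between GC content and log2 fold change of 0.91 and 0.82. After 5 min r was 0.64, while the medians of the GC bins over all genes stayed between −0.084 and −0.012. These values of r describe 10 genes that share their libraries.

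**Figure D2:**
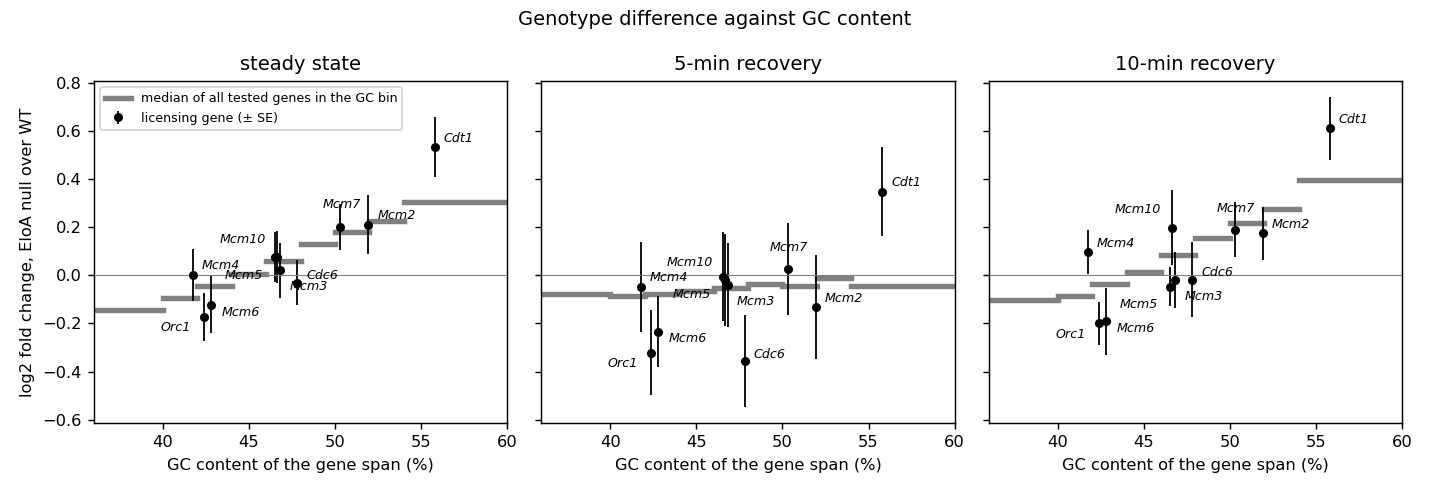
Log2 fold change (EloA null over WT) of each licensing gene (black, ± SE from limma) against the GC content of its span in percent, in the 3 conditions; grey bars give the median of all tested genes per GC bin, the outermost bins holding all genes below 40% or above 54%. In steady state and after 10 min the grey steps climb with GC content and most licensing genes lie near them, with Cdt1 above.

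When the trend with GC content was removed from each library, the log2 fold change of Cdt1 fell to 0.23 (SE 0.07, limma adjusted p = 0.252) in steady state and to 0.23 (SE 0.08, limma adjusted p = 0.226) after 10 min, and was 0.36 (SE 0.15, limma adjusted p = 0.487) after 5 min. The libraries still did not overlap. Among the 877 genes with 54% to 58% GC, 80.6% had a lower log2 fold change than Cdt1 in steady state, and after 10 min 76.7% of 767 did. Cdt1 thus lay high among genes of its own base composition, but inside their range.

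Mcm2 and Mcm7 come next in GC content, at 51.9% and 50.3%. In steady state Mcm2 gave 7.88 and 7.10 RPKM in WT and 8.02 and 9.36 RPKM in EloA null, so that the log2 fold change was 0.21 (SE 0.12, limma adjusted p = 0.42). Mcm7 gave 16.8 and 17.0 RPKM against 20.0 and 19.0 RPKM, a log2 fold change of 0.20 (SE 0.10, limma adjusted p = 0.349). Without the GC trend these values were −0.0047 for Mcm2 and 0.03 for Mcm7, and after 10 min they went from 0.17 to −0.08 and from 0.19 to −0.02. With the trend removed the libraries of the genotypes overlapped for both genes in steady state and for Mcm7 after 10 min. Mcm2 was then lower without overlap after 10 min.

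Orc1, the gene of the largest origin recognition subunit, lay lowest in steady state and after 10 min and was lower without overlap in all 3 conditions. WT gave 9.15 and 8.57 RPKM and the libraries labelled EloA null 8.23 and 7.48 RPKM in steady state. After 5 min the values were 8.65 and 7.52 RPKM against 6.22 and 6.66 RPKM, and after 10 min 13.3 and 14.3 RPKM against 11.9 and 12.1 RPKM. The log2 fold changes were −0.17 (SE 0.10), −0.32 (SE 0.18) and −0.20 (SE 0.09), with limma adjusted p = 0.419, 0.651 and 0.298. Without the GC trend they were −0.12, −0.25 and −0.16. The sign was the same with and without the trend, the values without it were closer to 0, and all stayed below 1.5-fold. The 3′ part of Orc1 is overlapped by the antisense noncoding gene Gm12743 over 13206 of its 32398 counted bases, and since the use of strand in counting is not stated, reads of the overlap cannot be assigned.

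Cdc6, which loads the helicase together with ORC, differed between the genotypes by −0.36 (SE 0.19, limma adjusted p = 0.639) after 5 min, with 1.77 and 1.31 RPKM in WT against 1.24 and 1.10 RPKM. In steady state and after 10 min its ranges overlapped, and the log2 fold changes were −0.03 and −0.02. Mcm6 was lower in the same way after 5 min, at 2.38 and 2.14 RPKM against 1.92 and 1.89 RPKM, a log2 fold change of −0.23 (SE 0.15, limma adjusted p = 0.702). Mcm3, Mcm4, Mcm5 and Mcm10 had log2 fold changes between −0.05 and 0.20 in the 3 conditions.

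**Figure D3:**
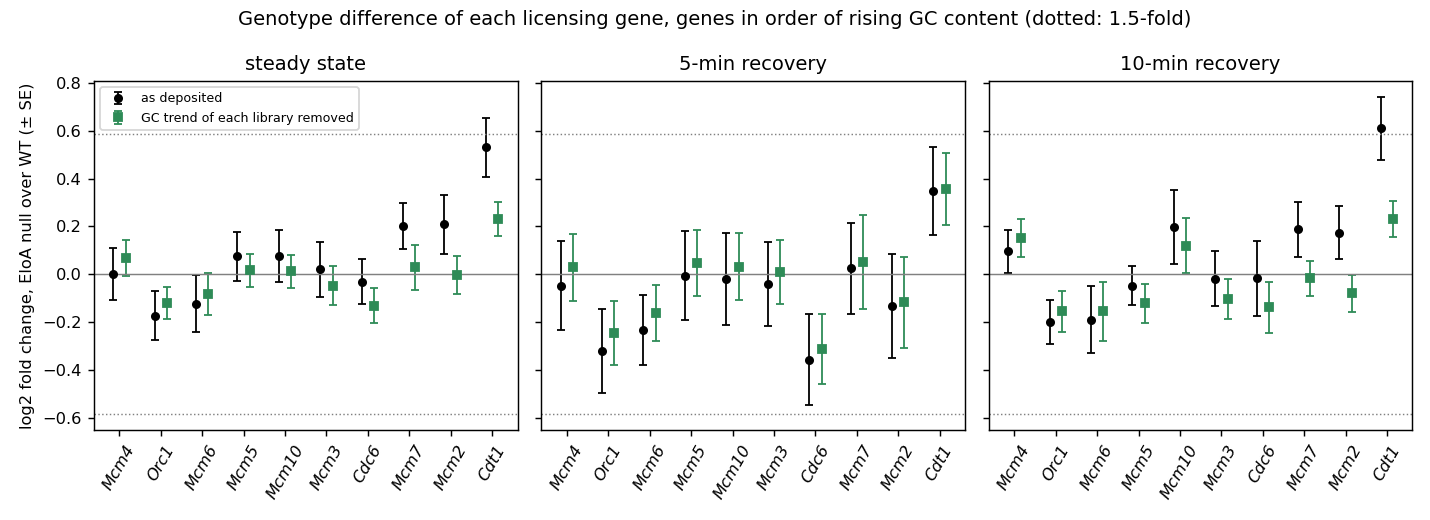
Log2 fold change (EloA null over WT, ± SE from limma) of each licensing gene in the 3 conditions, ordered by GC content from left to right; black circles are from the deposited values and green squares from values with the GC trend of each library removed. Only the deposited value of Cdt1 after 10 min exceeds the dotted 1.5-fold line, and the green values of Cdt1, Mcm2 and Mcm7 in steady state and after 10 min lie closer to 0 or below it.

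Whether the genotype difference itself changed between conditions was tested with a limma fit of all 12 libraries. None of the 10 genes passed, beside 0.0811% of 8627 genes for 5-min recovery against steady state and 0.0102% of 9823 genes for 10-min recovery. The differences of log2 fold changes ran from −0.34 (Mcm2) to −0.05 (Mcm4) for 5 min and from −0.12 (Mcm5) to 0.12 (Mcm10) for 10 min. Over all genes tested the medians were −0.083 for 5 min and 0.012 for 10 min. The smallest unadjusted limma p among the 20 tests was 0.185. Beside these comparisons, the summed RPKM of the 10 feeder fibroblast markers ran from 1.55 to 1.96 in WT and from 1.32 to 1.47 in the libraries labelled EloA null in steady state, from 1.64 to 1.81 against 0.867 to 1.499 after 5 min, and from 2.20 to 3.07 against 1.62 to 2.39 after 10 min. Of that list Lum and Dcn, each at 0 in at least 1 library of every condition, did not exceed 0.0308 RPKM. The summed RPKM of the 4 neural markers in steady state was 1.47 to 1.64 in WT and 1.81 to 2.26 in EloA null. The sums overlapped after 5 min (0.397 to 0.724 against 0.513 to 0.591) and after 10 min (0.606 to 0.857 against 0.743 to 0.789). Of the 2 neural markers tested in steady state, Tubb3 had a log2 fold change of 0.60 and Nes of −0.08. The part of these differences in the values of the licensing genes was not tested. In bulk samples a change in the share of cells in a given cycle phase and a change in RNA per cell cannot be told apart.

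After release from FP the licensing genes separated widely. The following ratios set RPKM in recovery over the mean steady-state RPKM of the same genotype. Their SD holds the spread of the recovery libraries only, and not that of the steady-state libraries. How the tables of the 3 conditions were scaled to each other is not given in the sources used here. Each RPKM is a share of its own library, so that a ratio of 1 does not mark a return to the same amount of RNA. BrU was also given for 5 min in the first recovery, and for 10 min in the other 2 conditions. These ratios are therefore given as a description without a test, beside the median of expressed genes whose length was within 20% of that of the member.

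After 5 min the ratios in WT ranged from 0.277 (Mcm6) to 1.58 (Mcm7), with a median of 0.483. The highest and lowest of Mcm2 to Mcm7, here Mcm7 and Mcm6, then differed 11.8-fold in WT, against 3.39-fold in steady state. Short genes were not simply ahead. Mcm7 (7301 bases) stood at 1.58 ± 0.0919 (SD, n = 2), and Cdt1, which is shorter still (5116 bases), at 0.579 ± 0.0205. Orc1, the longest of the 10 at 35380 bases, stood at 0.913 ± 0.0905, beside a median of 0.444 for 1190 genes of like length.

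Relative to genes of like length in WT, 4 of the 10 were above the median after 5 min. They were Orc1, which exceeded between 85.3% and 87.2% of such genes in the 2 libraries, Mcm7 (79.6% to 85.4%), Mcm4 (65.0% in both) and Mcm3 (57.6% to 59.9%). The 6 genes below the median were Mcm10 (above 19.0% to 20.9% of genes of like length), Mcm6 (18.5% to 23.0%), Cdc6 (28.2% to 29.8%), Mcm2 (25.8% to 32.7%), Mcm5 (29.4% to 35.5%) and Cdt1 (30.4% to 35.4%). In EloA null the same 4 genes were above, with Orc1 at 82.3% to 84.3% and Mcm7 at 80.6% to 81.5%.

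After 10 min the ratios had risen in all 10 genes, to between 0.689 (Mcm6) and 2.04 (Mcm4) in WT. Mcm4, a helicase subunit gene of 13504 bases, went from 0.921 ± 0.0979 after 5 min to 2.04 ± 0.0983 (SD, n = 2). Mcm7 moved least, from 1.58 to 1.83 ± 0.220, and Mcm5 went from 0.386 ± 0.0340 to 1.17 ± 0.00214. In WT the level after 10 min was 1.16 times that after 5 min for Mcm7, where genes of like length had a median of 1.96, and 3.05 times for Mcm5, where they had a median of 2.68. Mcm2 was close to Mcm5 in WT, at 2.98 times, and in EloA null Mcm2 (3.65), Cdc6 (3.53) and Mcm10 (3.10) rose more than Mcm5 (2.95). Orc1 stood at 1.56 ± 0.0837 and above 76.0% to 80.8% of genes of like length. It was above that median together with Mcm4 and Mcm7, 3 genes in all, and Mcm10, Mcm6 and Cdt1 were the lowest, each above at most 24.0%.

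After 10 min some of the ratios were higher and others lower in EloA null than in WT. After 10 min Mcm4 stood at 2.04 in WT and 2.18 in EloA null, Mcm7 at 1.83 and 1.80, Orc1 at 1.56 and 1.52, and Mcm6 at 0.689 and 0.653. After 5 min every licensing gene had a lower mean ratio in EloA null than in WT. Mcm7 stood at 1.58 and 1.40, Orc1 at 0.913 and 0.820, Mcm2 at 0.387 and 0.307, and Cdc6 at 0.379 and 0.294. Medians of genes of like length were lower as well, at 0.634 and 0.545 for Mcm2 and 0.607 and 0.528 for Cdc6. Relative to genes of like length, only Mcm2 (0.614 and 0.561) and Cdc6 (0.621 and 0.559) were lower in EloA null. Every other licensing gene was higher by this measure, from Orc1 (2.06 and 2.08) to Mcm4 (1.38 and 1.53). The tests of the difference between conditions given above passed for none of these genes.

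**Figure D4:**
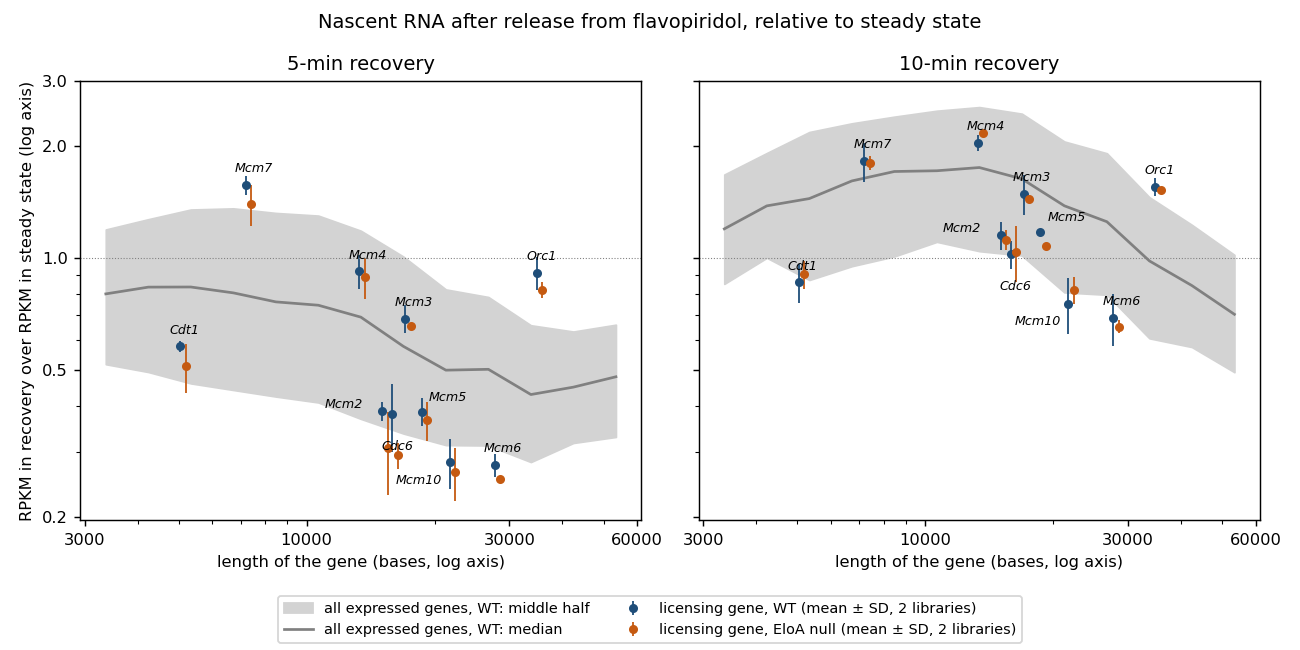
RPKM in recovery over RPKM in steady state (log axis) against gene length (log axis) for each licensing gene, blue WT and orange EloA null. Points are the mean ± SD of 2 recovery libraries, each over the same steady-state mean. The grey line is the median of all expressed WT genes by length and the grey band is their interquartile range. Orc1 lies above the band in both panels and Mcm7 above it after 5 min, while Mcm6 and Mcm10 lie at or below its lower edge.

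Where the counted introns lie differs among the genes. Orc1 has its longest intron, of 9102 bases, 121 bases from its start, and Mcm6 one of 3801 bases 246 bases from its start. In Orc1 30.2% of the counted bases lie within 10 kb of the start, in Mcm6 36.7%, in Mcm10 46.7%, and in Mcm7 and Cdt1 100%. The part of intron position in the ratios was not tested. Across the 10 genes Spearman's rho between length and ratio was −0.48 after 5 min and −0.27 after 10 min in WT, as a description of genes that share their libraries.

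The introns of Mcm7 hold the hairpins of Mir106b, Mir93 and Mir25, which begin 6065, 6273 and 6479 bases from the start of the gene. Their mature products, known as regulators of the cell cycle, are shown with the seed (bases 2 to 8) in capitals, to mark which of them share it, from RefSeq on GRCm38. They lie at chr5:138165787-138165807, chr5:138165574-138165596 and chr5:138165332-138165353, all on the minus strand, as Mcm7 does.
miR-106b-5p: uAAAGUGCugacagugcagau
miR-93-5p: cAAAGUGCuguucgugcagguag
miR-25-3p: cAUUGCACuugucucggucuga

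miR-106b-5p and miR-93-5p have the same seed, and that of miR-25-3p differs. Bru-seq measures newly made RNA, and these reads cannot be divided between the unspliced Mcm7 transcript, excised introns and hairpin precursors. The 3 hairpins together span 254 bases and held 33 to 216 reads per library, with 33 to 59 after 5 min, so each value is imprecise. Hairpins are about as short as a read, so their density is not directly on the scale of the introns, and only its change between conditions within the same gene is described.

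In steady state the RPKM over the hairpins was 1.11 and 1.10 times that of Mcm7 in the WT libraries and 0.801 and 1.0103 times in the libraries labelled EloA null. After 5 min it was 0.517 and 0.662 times in WT and 0.575 and 0.438 times in EloA null, and after 10 min 0.862 and 0.784 times against 0.774 and 0.877 times. All 4 libraries after 5 min lay below all 4 in steady state and all 4 after 10 min. As both values come from the same library, this ratio does not depend on how the tables were scaled. Labelling with BrU lasted 5 min in the 5-min recovery and 10 min in the other conditions. Its part in this ratio was not tested. The mean fell by 0.456 from steady state to 5 min and rose by 0.276 from 5 to 10 min. From steady state to 10 min it fell by 0.179. This ratio was chosen after its values had been seen, so it is given as a description with no test.

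**Figure D5:**
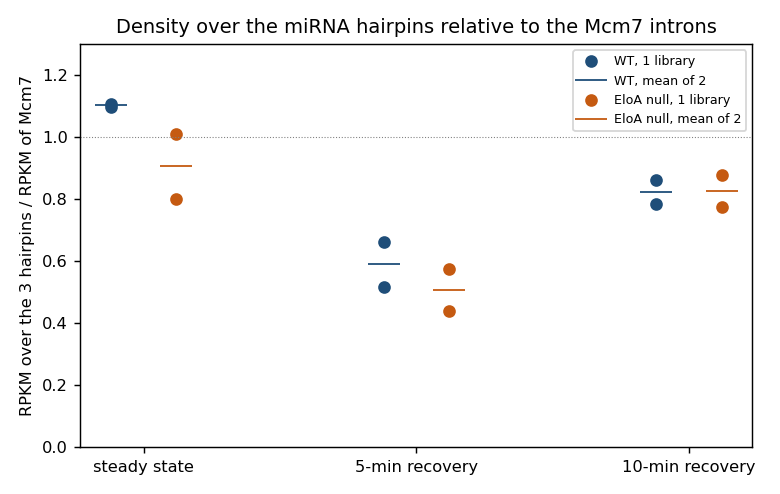
RPKM over the 3 miRNA hairpins divided by the RPKM of Mcm7 in the same library, for the 3 conditions; dots are single libraries, bars the mean of 2, blue WT and orange EloA null. The 4 libraries after 5 min lie between 0.438 and 0.662, below the 8 others.

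Some licensing genes share their start region with another gene. Ap4m1, an adaptor complex subunit gene, starts 138 bases from Mcm7 on the other strand, Prpf38a, a splicing factor gene, 118 bases from Orc1, and Prkdc, the gene of the DNA-dependent protein kinase, 466 bases from Mcm4. In steady state their mean WT levels were 5.05, 3.15 and 1.05 RPKM, against 16.9, 8.86 and 4.99 RPKM of their licensing partners. Their log2 fold changes between the genotypes lay between −0.17 and 0.22 in the 3 conditions, with limma adjusted p from 0.522 to 0.935.

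The rest of the replication pathway was examined in 5 lists, and no gene of any list passed the adjusted threshold in any condition. Of 9 other licensing genes, 9 were tested in each condition and had a median log2 fold change of −0.16 in steady state, −0.17 after 5 min and −0.14 after 10 min, with 5, 6 and 5 lower without overlap (21.4%, 25.0% and 21.8% of all genes) and 1 higher in each (32.0%, 15.4% and 33.5%). Removing the GC trend left medians of −0.04, −0.11 and −0.09, with 5, 3 and 4 lower and 2, 1 and 1 higher without overlap. For all genes tested the medians were then −0.012, −0.008 and −0.009. Of these genes 2845 of 11345, 1948 of 8984 and 2846 of 10239 were lower without overlap, and 2649, 1918 and 2669 were higher. Among the 9 other licensing genes, Gmnn, the gene of the CDT1 inhibitor geminin, was the highest in steady state. It gave 3.92 and 3.62 RPKM in WT and 4.46 and 4.24 RPKM in the libraries labelled EloA null (log2 fold change 0.20, limma adjusted p = 0.333). Mcm9, a helicase relative that acts in recombination, was the lowest, at 3.04 and 2.99 RPKM against 2.40 and 1.97 RPKM (log2 fold change −0.45, limma adjusted p = 0.179).

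In recovery Orc6, an origin recognition subunit gene, was the highest of that list, with log2 fold changes of 0.14 after 5 min and 0.11 after 10 min. Mcmbp, whose product binds MCM proteins, was the lowest, with −0.50 and −0.26. These values had limma adjusted p from 0.238 to 0.871. With the GC trend removed the 10 genes described here had medians of 0.0038, 0.019 and −0.092. After 10 min both lists thus had about the same median, and no difference between the lists was tested. With the trend removed, 1, 1 and 2 of the 10 genes were higher without overlap and 2, 3 and 5 lower. Over all genes these counts were 2649, 1918 and 2669 higher, and 2845, 1948 and 2846 lower, of 11345, 8984 and 10239.

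The 13 genes of helicase activation and origin firing had medians of −0.03 (13 tested), −0.09 (11 tested) and −0.03 (13 tested). Gins2, a subunit of the GINS complex, was the highest in steady state (0.38) and after 10 min (0.42), and Wdhd1, a fork scaffold, after 5 min (0.22). Dbf4, the activator of the CDC7 kinase, was the lowest in steady state (−0.24), and Cdc7 itself after 5 min (−0.42) and 10 min (−0.37). Their limma adjusted p ran from 0.164 to 0.776. With the GC trend removed Gins2 stood at 0.16 and 0.17, Wdhd1 at 0.29, Dbf4 at −0.12, and Cdc7 at −0.35 and −0.33.

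The replication fork genes, with 23, 22 and 23 of 24 tested, had medians of 0.01, −0.14 and 0.07. Chtf18, of an alternative clamp loader, was the highest in steady state (0.48), Pole4, of DNA polymerase epsilon, after 5 min (0.19) and Fen1, the flap endonuclease, after 10 min (0.55). Rfc4, of the clamp loader, was the lowest in steady state (−0.27) and after 10 min (−0.42), where it gave 37.3 and 37.2 RPKM in WT against 27.8 and 27.8 RPKM (limma adjusted p = 0.117). Rpa1, of the single-strand binding complex, was the lowest after 5 min (−0.46). With the GC trend removed Chtf18 stood at 0.18, Pole4 at 0.27 and Fen1 at 0.37. Rfc4 then stood at −0.18 and −0.35, and Rpa1 at −0.40.

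The 7 genes of CDT1 destruction, all tested, had medians of −0.03, −0.02 and 0.06. Cul4a was the highest in steady state (0.02) and after 10 min (0.15), Ddb1 after 5 min (0.08), and Cul1 the lowest throughout (−0.14, −0.16 and −0.16). All of these are subunits of the ubiquitin ligases that remove CDT1, and none differed by as much as Cdt1 itself. The E2F and pocket protein genes, with 13, 10 and 13 tested, had medians of 0.11, −0.03 and 0.04. Rb1, the retinoblastoma gene, was the highest in each condition and higher without overlap, at 1.22 and 1.32 RPKM in WT against 1.90 and 1.87 RPKM in steady state (log2 fold change 0.54, limma adjusted p = 0.111). Its log2 fold change was 0.74 after 5 min (limma adjusted p = 0.27) and 0.77 after 10 min (limma adjusted p = 0.0982), and it was 0.66, 0.80 and 0.86 with the GC trend removed. The lowest were Tfdp2, an E2F partner, in steady state (−0.12) and after 10 min (−0.22), and E2f3 after 5 min (−0.41).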

How the data were processed

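Bru-seq values of 12 libraries, 2 per genotype and condition, were analysed; 16 CUT&RUN-seq and ChIP-seq samples were not analysed here. Per the paper's methods the authors aligned paired-end reads to mm10 and dm3 with Bowtie2 (2.3.4.3 in the submitters' processing notes), kept uniquely aligned reads and separated strands with SAMtools, counted reads over whole RefSeq genes with featureCounts (1.6.1), and deposited RPKM calculated with edgeR, in 1 table per condition. The use of strand in counting and the scaling between tables are not given in the sources used here. The tables hold no authors' comparisons, and their mean columns were not used.

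Although the methods name whole genes, the deposited RPKM gave whole reads with intron lengths. These lengths set library sizes at 9857529 to 28547353 reads, with 96.8% to 97.2% of expressed genes with introns whole. Genes with a mean RPKM above 0.5 in either genotype were tested with limma 3.58.1 (R 4.3.3, intensity trend) on log2(RPKM + 0.1), which was tested on simulated data. The GC trend was a lowess curve per library (span 0.3) over the gene span. Named were the 10 genes, Eloa, genes overlapping or starting within 1 kb of them, and the highest and lowest gene of each list per comparison. The genes and lists were chosen with earlier results of these data known. Alternatives were another pseudocount, filters on low values, centring, quantile normalization, a replicate block, a fit of all 12 libraries, robust variance, the GC trend, and leaving out each library. Mcm4 had no promoter window in the table used.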

Additional observations from a re-analysis of the deposited data

How the results depend on the processing

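No licensing gene passed the adjusted threshold under any alternative, and of 388 values of single genes 348 kept their sign and 40 reversed it; Cdt1, Orc1 and Mcm6 kept theirs throughout. With 2 libraries per group and RPKM in place of deposited counts, small differences could not be resolved, and the 5-min libraries were the shallowest.

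Over all genes, calls between the genotypes were 0 in each condition. In steady state they were 1 with RPKM above 2, 132 with all 12 libraries in the fit and 81 with robust variance. After 5 min they were 532 with all 12 libraries and 29 with robust variance. After 10 min they were 5 with a pseudocount of 1, 7 with RPKM above 2, 12 with centring, 6 with quantile normalization, 264 with all 12 libraries, 26 with robust variance and 10 without the GC trend. Leaving out 1 library gave 0 in steady state, 0 to 90 after 5 min, with 0 without the second EloA null library, and 0 to 81 after 10 min, with 0 without the first WT library. The cause was not tested.

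The replicate block gave 0 calls in steady state, 128 after 5 min and 0 after 10 min. For the difference of genotype differences it gave 2 calls for 5 min and 0 for 10 min. Deviations of same-numbered libraries correlated at 0.101, 0.119 and 0.103, and with 2 pairs the numbers were not taken to pair the samples.

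For the difference of genotype differences, 5 min gave 7 calls, 1 with a pseudocount of 1, 97 without a filter, 4 with quantile normalization and 0 to 20 without 1 library. For 10 min it gave 1 call, 54 without a filter and 0 to 1 without 1 library.

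After 10 min no licensing gene was past 1.5-fold (0) under centring, quantile normalization or removal of the GC trend, and 0 to 1 were without 1 library in all 3 conditions. The gene was Cdt1 in steady state without the first EloA null library, Cdc6 after 5 min without the second WT library, and Cdt1 after 10 min, where it was lost without the second WT or the first EloA null library. The median of the 10 genes after 10 min was −0.058 with centring and −0.092 without the GC trend. Without 1 library it ran from −0.039 to 0.12 in steady state, from −0.17 to 0.10 after 5 min and from −0.013 to 0.13 after 10 min. The median recovery ratio ran from 0.467 to 0.514 in WT and 0.395 to 0.481 in EloA null after 5 min, and from 1.11 to 1.23 and 1.07 to 1.17 after 10 min. Relative to genes of like length it ran from 0.684 to 0.728, 0.703 to 0.793, 0.706 to 0.739 and 0.651 to 0.729 in the same order.

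These log2 fold changes turned sign. In steady state, centring gave −0.040 for Mcm3 and −0.058 for Mcm4, quantile normalization −0.063 for Mcm3, −0.029 for Mcm4 and −0.011 for Mcm5, and removal of the GC trend −0.0047 for Mcm2 and −0.048 for Mcm3. After 5 min, centring gave 0.025 for Mcm3, 0.018 for Mcm4, 0.061 for Mcm5 and 0.046 for Mcm10, quantile normalization 0.033 for Mcm10, and removal of the GC trend 0.0099 for Mcm3, 0.028 for Mcm4, 0.046 for Mcm5 and 0.032 for Mcm10. After 10 min, centring gave −0.0014 for Mcm4, and removal of the GC trend −0.080 for Mcm2 and −0.017 for Mcm7. Without 1 library, steady-state values ran from −0.058 to 0.098 for Mcm3, −0.093 to 0.097 for Mcm4, −0.028 to 0.177 for Mcm10 and −0.089 to 0.027 for Cdc6. After 5 min they ran from −0.382 to 0.117 for Mcm2, −0.128 to 0.046 for Mcm3, −0.173 to 0.077 for Mcm4, −0.128 to 0.117 for Mcm5, −0.105 to 0.156 for Mcm7 and −0.176 to 0.136 for Mcm10. After 10 min they ran from −0.144 to 0.105 for Mcm3 and −0.192 to 0.156 for Cdc6.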
